A study of Mus musculus with 6 samples.

Results

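The SREBP program was followed through 33 listed genes, 23 of the sterol branch (Hmgcs1 to Stard4 in the pathway list) and 10 of the fatty-acid branch (Srebf1 to Fads2), of 55291 genes in the count table. A member was required to have at least 10 counts in each of the 6 libraries, and all 33 genes met this. The libraries came from WT MEFs (mouse embryonic fibroblasts, cultured connective-tissue cells of the embryo). The labels name neither a strain nor an embryonic age. There were 2 libraries with vehicle, 2 with MASM7, a small molecule that activates mitofusins, at 1 μM for 6 h, and 2 with MFI8, a small molecule that inhibits mitofusins, at 20 μM for 6 h. Mitofusins are GTPases of the outer mitochondrial membrane that tether and fuse mitochondria. The labels give neither a duration nor a dose for vehicle, and do not say whether the 2 libraries of a group came from separate cultures, so p-values measure only the spread between these libraries, which may be technical. The compounds were used at different concentrations, and compound and concentration cannot be told apart.

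SREBPs, the products of Srebf1 and Srebf2, are transcription factors made as precursors in the membrane of the endoplasmic reticulum. When membrane cholesterol is low, the escort protein Scap carries them to the Golgi, where proteases release the active factor, and when cholesterol is high, Insig1 and Insig2 hold Scap back. The Srebf2 product acts mainly on the genes of cholesterol synthesis and uptake, and the Srebf1 products act more on those of fatty-acid synthesis and desaturation, usually together with NF-Y and Sp1 at nearby sites.

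Promoter sequence is shown because genes of the program are known for SREBP sites close to NF-Y and Sp1 sites. RefSeq sequence (GRCm38.p6, the build of the count table) was matched by symbol for 26 of the 33 genes. Fdps, Fdft1, Sqle, Stard4, Scd1, Scd2 and Fads1 were not searched. In the 250 bases before the start, on both strands, the NF-Y box CCAAT was found in 17 of 19 sterol genes (89.5%) and 3 of 7 fatty-acid genes (42.9%), beside 41.2% of 9816 tested genes and 37.5% of the 27025 genes of the RefSeq promoter table. The Sp1 box GGGCGG was found in 18 of 19 sterol genes (94.7%) and 4 of 7 fatty-acid genes (57.1%), beside 65.4% of the tested genes and 35.4% of the promoter table. The sterol regulatory element TCACNCCAC was matched only in Hmgcs1, 137 bases before its start, beside 1.2% of the tested genes and 1.22% of the promoter table. A separate element of the E-box type, TCACNTGA, was matched only in Insig2, beside 3.96% of the tested genes and 3.98% of the promoter table. The E-box CACGTG was found in 5 of 19 sterol genes and 0 of 7 fatty-acid genes, beside 9.95% of the tested genes and 6.86% of the promoter table. A gene with several starts counted if any of its windows held the motif, and 5 of the 26 listed genes had more than 1 start. These matches describe the letters in these windows and are not binding sites.

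The windows printed here, 5′ to 3′ on the gene's strand, belong to members whose level differed from vehicle under the replicate block described below, had 1 start, and have most of their length before the annotated gene, to which they were trimmed. They are Hmgcs1 (chr13:119690151-119690350, plus strand), Cyp51 (chr5:4104747-4104897, minus strand, ending 50 bases before the start), Sc5d (chr9:42264301-42264500, minus strand), Fasn (chr11:120824548-120824747, minus strand) and Elovl6 (chr3:129532186-129532354, plus strand, ending 32 bases before the start). Capitals mark matches to the 5 motifs on either strand, and in Fasn a CCAAT box on each strand overlaps the other.
Hmgcs1: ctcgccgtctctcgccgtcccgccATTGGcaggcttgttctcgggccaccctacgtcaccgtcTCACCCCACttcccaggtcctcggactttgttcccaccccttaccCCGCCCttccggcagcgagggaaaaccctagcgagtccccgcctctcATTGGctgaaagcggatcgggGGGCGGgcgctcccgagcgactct
Cyp51: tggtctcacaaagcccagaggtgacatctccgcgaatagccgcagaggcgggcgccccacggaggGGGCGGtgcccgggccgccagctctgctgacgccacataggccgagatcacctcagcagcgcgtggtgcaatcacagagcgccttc
Sc5d: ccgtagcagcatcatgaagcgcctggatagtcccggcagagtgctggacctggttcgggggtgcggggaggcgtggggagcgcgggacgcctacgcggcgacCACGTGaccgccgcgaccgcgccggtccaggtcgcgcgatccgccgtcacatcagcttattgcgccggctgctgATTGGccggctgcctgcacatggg
Fasn: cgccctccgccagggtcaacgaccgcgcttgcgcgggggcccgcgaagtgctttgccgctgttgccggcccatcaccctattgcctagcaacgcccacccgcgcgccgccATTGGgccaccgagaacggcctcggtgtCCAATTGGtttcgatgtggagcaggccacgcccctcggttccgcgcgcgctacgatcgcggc
Elovl6: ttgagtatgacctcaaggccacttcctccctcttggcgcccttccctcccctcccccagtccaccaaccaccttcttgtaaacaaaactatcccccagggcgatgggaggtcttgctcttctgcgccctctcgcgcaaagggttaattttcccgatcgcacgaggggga
The Hmgcs1 window held 5 matches, among them the sterol regulatory element, a pair of inverted CCAAT boxes and an Sp1 box on each strand. The Sc5d window held an E-box and an inverted CCAAT box, the Fasn window 3 CCAAT boxes, the Cyp51 window 1 Sp1 box and the Elovl6 window 0 matches. The 250 bases searched also held matches outside the printed stretches. These were a CCAAT box of Hmgcs1 (237 bases before the start), one of Cyp51 (29 bases) and Sp1 boxes of Sc5d (241 and 205 bases).

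Between 22791792 and 30677751 counts per library were assigned to genes, and the listed genes took 0.396% to 0.450% of them. Of 9 fibroblast markers, 8 reached at least 1 TPM in all 6 libraries, with a summed level of 5282 to 6616 TPM under vehicle, 5806 to 6633 under MASM7 and 5101 to 6218 under MFI8, in each group higher in replicate 1 than in replicate 2. Thy1 stayed under 1 TPM throughout. Adipocyte, endothelial and hepatocyte markers summed to less than 1 TPM in every library, epithelial markers to between 1.44 and 2.21 TPM, and immune markers to between 8.91 and 11.9 TPM. Cd68 made up nearly all of the immune sum, and Ptprc, Adgre1 and Itgam had at most 2 counts in any library. Vehicle replicate 1 stood apart in the sterol branch: it was the highest of the 6 libraries for 15 of the 23 genes and the lowest for 0. Vehicle replicate 2 was lower than vehicle replicate 1 for 20 of the 23. The median difference was -0.13 on the log2 scale, beside -0.0005 over all tested genes, whose median absolute difference was 0.12. With MASM7 12 of 23 were lower in replicate 2, and with MFI8 12 of 23. The counts, the calls made with the replicate block described below and the branch medians are therefore also given without vehicle replicate 1.

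Every member was detected in every library, and the levels spanned a wide range (TPM, a deposited level corrected for gene length and library depth). Scd2, a stearoyl-CoA desaturase, was the highest at 572 ± 89.8 TPM with vehicle (mean ± SD, n = 2). Acly, which makes cytosolic acetyl-CoA from citrate, followed at 283 ± 0.179 TPM, and Fasn, the fatty acid synthase, at 229.7 ± 13.8 TPM. In the sterol branch, Srebf2 itself was the highest at 155 ± 5.72 TPM, ahead of Sqle, the squalene epoxidase, at 115 ± 10.2 TPM and Hmgcs1, the cytosolic HMG-CoA synthase, at 106 ± 13.8 TPM, and the SDs of these last 2 genes overlapped. The lowest members were Dhcr7, the last enzyme of cholesterol synthesis, at 8.59 ± 0.0912 TPM, the sterol reductase Tm7sf2 at 3.15 ± 1.23 TPM and the acetyl-CoA synthetase Acss2 at 1.07 ± 0.202 TPM. Summed over the 23 sterol genes, the level was 1281 and 1160 TPM in the vehicle libraries, 1174 and 1150 in those treated with MASM7, and 1149 and 1169 in those treated with MFI8, so vehicle replicate 1 alone lay above the rest.

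**Figure D1:**
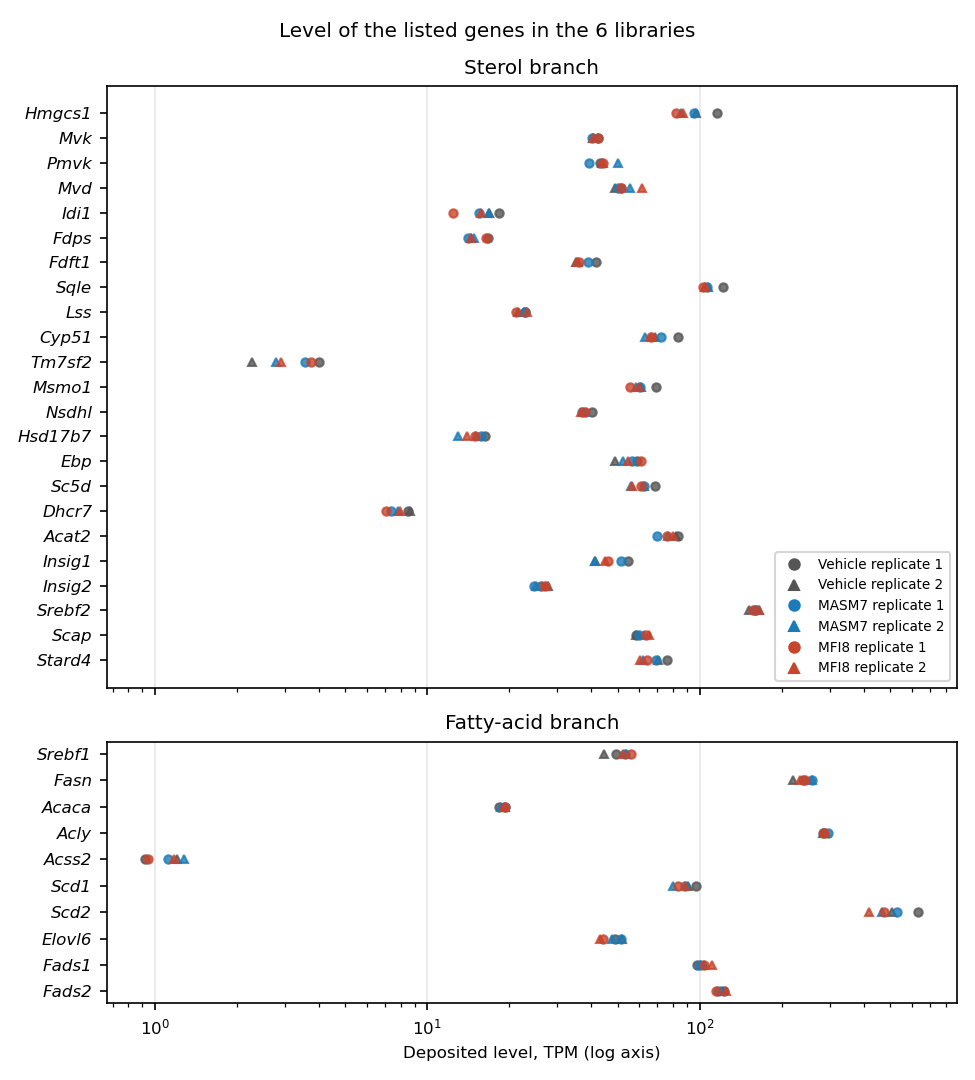
Level of each listed gene in TPM (horizontal log axis) in the 6 libraries, with the sterol branch above and the fatty-acid branch below; colour gives the group and the marker shape the replicate. Scd2 is the highest gene and Acss2 the lowest, and the 6 libraries of a gene lie close together beside the range between genes.

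MFI8, the mitofusin inhibitor, was compared with vehicle to see whether the program moved. All libraries came from WT cells, so effects through mitofusins and other effects of a compound cannot be told apart. In the fit that used the replicate number as a block, genes of both branches were lower with MFI8. Among the 33 genes the lowest log2 fold changes in that fit were those of Scd2 (-0.38 ± 0.05) and Hmgcs1 (-0.35 ± 0.06). Srebf1 was higher. No listed gene passed the test fitted without the replicate number (edgeR quasi-likelihood F test, p-values adjusted by the Benjamini-Hochberg method across 14290 genes): 0 of the 33 had an adjusted p under 0.05, beside 0% of all tested genes, and DESeq2 called 0 of the 33 as well. At an unadjusted p under 0.05, 7 of 23 sterol genes were lower and 0 higher, beside 4.65% of all tested genes lower and 5.21% higher, and 3 of 10 fatty-acid genes were lower and 1 higher. The total of 11 fell to 4 without vehicle replicate 1, with 2 sterol and 1 fatty-acid gene lower and 1 fatty-acid gene higher, beside 4.84% and 5.78% of all genes tested in that fit. Without MFI8 replicate 1 it was 6, with 3 sterol and 2 fatty-acid genes lower and 1 sterol gene higher, beside 4.05% and 4.56%. The replicate number was then entered as a block, because libraries with the same number deviated together. With the block, 9 listed genes fell and 1 rose, beside 2.25% of all tested genes lower and 2.79% higher. They were 7 sterol genes (Hmgcs1, Idi1, Sqle, Cyp51, Msmo1, Sc5d and Stard4) and the fatty-acid genes Scd2 and Elovl6, which were lower, and Srebf1, which was higher. The libraries of MFI8 and vehicle did not overlap for 11 of 23 sterol genes lower and 1 higher, and for 3 of 10 fatty-acid genes lower and 1 higher, beside 19.3% and 20.9% of all tested genes. Against vehicle replicate 2 alone these were 12 and 6 sterol genes and 5 and 3 fatty-acid genes, beside 35% and 38%. In bulk RNA, fewer cells that express a gene and less of its RNA per cell cannot be told apart. An exact permutation test of 2 libraries against 2 cannot give a two-sided p below 0.333.

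Of the early mevalonate enzymes, Hmgcs1 (chr13:119690379-119708260, plus strand), which condenses acetyl-CoA and acetoacetyl-CoA, had 152 and 124.7 CPM in the vehicle libraries (CPM, counts scaled to library depth with TMM factors), 125.3 and 113 in those with MASM7, and 105 and 111 in those with MFI8. Both MFI8 libraries lay below the other 4. Its log2 fold change for MFI8 was -0.36 ± 0.09 (SE; adjusted p = 0.332) without the block and -0.35 ± 0.06 (adjusted p = 0.000319) with it. An antisense gene shares 12.1% of its exonic bases, and reads of the pair cannot be told apart without strand. Idi1 (chr13:8885501-8892451, plus strand), the isomerase that makes dimethylallyl diphosphate, had 18.2 and 16.7 CPM in the vehicle libraries, 15.5 and 16.99 in those with MASM7, and 12.2 and 15.3 in those with MFI8. The MFI8 libraries were the lowest of the 6, with replicate 1 furthest down. Its log2 fold change was -0.34 ± 0.12 (adjusted p = 0.425), and -0.34 ± 0.10 (adjusted p = 0.047) with the block, and 9.22% of its exonic bases are shared with a transcript on the opposite strand. The kinases Mvk and Pmvk and the decarboxylase Mvd, which act between them, did not pass with or without the block: the log2 fold changes were -0.03 ± 0.07, -0.01 ± 0.12 and 0.15 ± 0.10. Nor did the farnesyl diphosphate synthase Fdps, at -0.04 ± 0.11, of whose exonic bases 26.7% are shared with another protein-coding gene on the same strand.

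From squalene to cholesterol, some enzymes passed with the block and others did not. Sqle (chr15:59315077-59331192, plus strand), the first oxygenation step, had 193 and 168.01 CPM in the vehicle libraries, 168.03 and 167 in those with MASM7, and 159 and 162 in those with MFI8. Vehicle replicate 1 was the highest library, and both MFI8 libraries lay below the other 4. The log2 fold change for MFI8 was -0.17 ± 0.07 (adjusted p = 0.448), and -0.17 ± 0.05 (adjusted p = 0.0467) with the block. Cyp51 (chr5:4081145-4104746, minus strand), the lanosterol demethylase, had 105 and 84.9 CPM in the vehicle libraries, 90.7 and 79.5 in those with MASM7, and 81.4 and 81.1 in those with MFI8. The vehicle libraries were above both MFI8 libraries, replicate 2 by little. Its log2 fold change was -0.22 ± 0.10 (adjusted p = 0.488), and -0.21 ± 0.06 (adjusted p = 0.0319) with the block. Msmo1 (chr8:64718139-64733792, minus strand), the methylsterol monooxygenase of the next steps, had 121 and 105 CPM in the vehicle libraries, 106 and 103 in those with MASM7, and 95.1 and 102.5 in those with MFI8. Its libraries were ordered like those of Sqle, with a log2 fold change of -0.19 ± 0.07 (adjusted p = 0.436), and -0.19 ± 0.06 (adjusted p = 0.0477) with the block. Sc5d (chr9:42251595-42264256, minus strand), the lathosterol desaturase, had 94.8 and 85.5 CPM in the vehicle libraries, 86.9 and 78.1 in those with MASM7, and 82.3 and 76.4 in those with MFI8. In every group replicate 1 was the higher library, and the log2 fold change was -0.18 ± 0.08 (adjusted p = 0.463), and -0.18 ± 0.05 (adjusted p = 0.0369) with the block.

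The other enzymes of this stretch did not pass either test for MFI8. Dhcr7 had 14.1 and 14.2 CPM with vehicle and 11.4 and 12.8 with MFI8, a log2 fold change of -0.22 ± 0.11 (adjusted p = 0.23 with the block). The squalene synthase Fdft1 stood at -0.13 ± 0.09, the lanosterol synthase Lss at -0.03 ± 0.07, and the sterol-processing enzymes Nsdhl and Hsd17b7 at -0.09 ± 0.08 and -0.14 ± 0.11. Ebp, a sterol isomerase, and Tm7sf2 were slightly above vehicle, at 0.07 ± 0.10 and 0.05 ± 0.27. Fdft1 shares 18.3% of its exonic bases with Ctsb on the opposite strand, and Tm7sf2 12.1% with Vps51 on the same strand. Acat2, the cytosolic acetoacetyl-CoA thiolase, had 60.4 and 58.6 CPM with vehicle and 53.6 and 56.4 with MFI8, a log2 fold change of -0.11 ± 0.07.

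Of the regulators counted in the sterol branch, 0 passed with or without the block. Srebf2 had 326 and 305.5 CPM with vehicle and 312 and 330.3 with MFI8, a log2 fold change of 0.03 ± 0.06 (-0.07 with the block and the offsets), and the groups overlapped. Scap had 123 and 122 CPM with vehicle and 131 and 135 with MFI8, without overlap, and a log2 fold change of 0.12 ± 0.05 (adjusted p = 0.161 with the block), which was 0.02 with the block and the GC and length offsets below, with 13.2% of its exonic bases shared with a transcript on the opposite strand. Insig1, itself an SREBP target, had 48.1 and 35.9 CPM with vehicle and 39.6 and 38.5 with MFI8, so both MFI8 libraries lay between the vehicle libraries. Insig2 differed by -0.02 ± 0.08.

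Stard4, which carries cholesterol between membranes, had 121 and 110 CPM in the vehicle libraries, 110 and 98.9 in those with MASM7, and 99.6 and 93.7 in those with MFI8. The difference between MFI8 and vehicle was nearly the same in each replicate number, -0.28 in replicate 1 and -0.23 in replicate 2 on the log2 scale. Its fitted log2 fold change was -0.25 ± 0.07 (adjusted p = 0.357), and -0.25 ± 0.05 (adjusted p = 0.00196) with the block.

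In the fatty-acid branch the lower genes for MFI8 were a desaturase and an elongase. Scd2 (chr19:44293674-44306864, plus strand) had 988 and 781 CPM in the vehicle libraries, 829 and 734 in those with MASM7, and 722 and 634 in those with MFI8. Replicate 1 was the higher library in each group, and within each number the order was vehicle, MASM7, MFI8. Its log2 fold change was -0.38 ± 0.11 (adjusted p = 0.357), and -0.38 ± 0.05 (adjusted p = 4.72e-06) with the block. Elovl6 (chr3:129532355-129638495, plus strand), which elongates palmitate to stearate, had 89.6 and 93.8 CPM in the vehicle libraries, 94.5 and 87.7 in those with MASM7, and 79.0 and 76.9 in those with MFI8. Here vehicle and MASM7 overlapped and MFI8 lay below both, and the log2 fold change was -0.24 ± 0.06 (adjusted p = 0.341), and -0.24 ± 0.05 (adjusted p = 0.00931) with the block. Scd1, the other desaturase listed, had 135 and 125 CPM in the vehicle libraries, 123 and 112 in those with MASM7, and 113 and 120 in those with MFI8, a log2 fold change of -0.16 ± 0.07 (adjusted p = 0.482), which did not pass with the block either (adjusted p = 0.088).

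Srebf1 (chr11:60199089-60222581, minus strand) went the other way. It had 79.2 and 70.5 CPM in the vehicle libraries, 85.3 and 86.5 in those with MASM7, and 87.9 and 82.1 in those with MFI8, so the 4 treated libraries were above both vehicle libraries. Its log2 fold change for MFI8 was 0.18 ± 0.07 (adjusted p = 0.436), and 0.18 ± 0.06 (adjusted p = 0.0486) with the block. The genes of chain synthesis were near vehicle: Fasn differed by 0.03 ± 0.06 (a sign that the GC and length offsets below turn), the acetyl-CoA carboxylase Acaca by 0.01 ± 0.05 and Acly by 0.00 ± 0.05 on the log2 scale. The front-end desaturases Fads1 and Fads2 differed by 0.06 ± 0.06 and -0.04 ± 0.06, and Acss2, with fewer than 4 CPM in every library, by -0.03 ± 0.22.

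**Figure D2:**
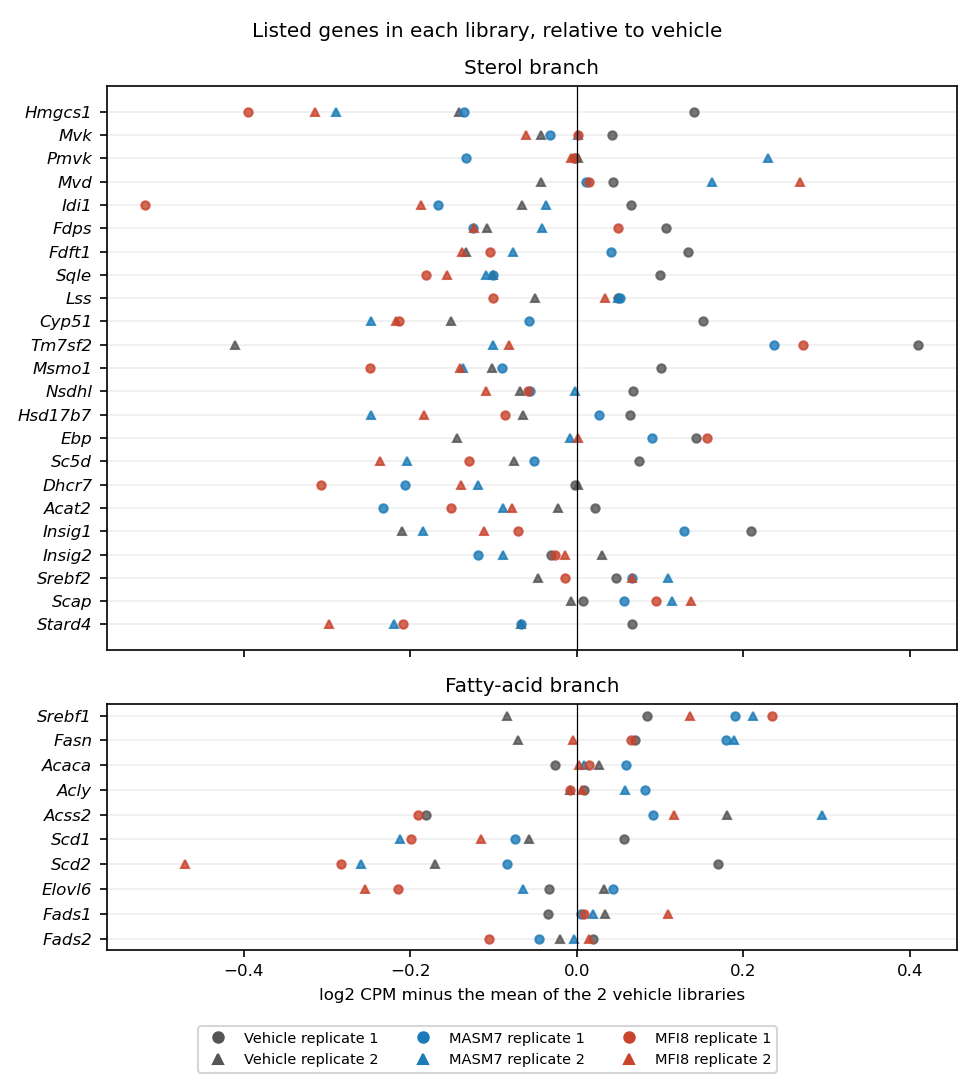
log2 CPM of each listed gene in each library minus the mean of the 2 vehicle libraries (horizontal axis), with the sterol branch above and the fatty-acid branch below. Vehicle replicate 1 is the rightmost marker for 15 of 23 sterol genes, and both MFI8 libraries lie left of both vehicle libraries for 11 of 23.

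The calls with the block depended on single libraries to different degrees. Scd2 passed in each of the 6 fits that left out 1 library, with a log2 fold change between -0.30 and -0.46. Without vehicle replicate 1, Hmgcs1 (-0.23, adjusted p = 0.00856), Stard4 (-0.25, adjusted p = 0.00532), Scd2, Elovl6 (-0.30, adjusted p = 0.000505) and Srebf1 (0.25, adjusted p = 0.0104) still passed and Mvd (0.29, adjusted p = 0.0437) passed as higher, beside 3% of all tested genes lower and 3.32% higher. Of the 5 calls lost in that fit, Sc5d kept its size (-0.17, adjusted p = 0.117, against -0.18 with all libraries). The other 4 were smaller: Idi1 stood at -0.17 against -0.34, Sqle at -0.06 against -0.17, Cyp51 at -0.11 against -0.21 and Msmo1 at -0.07 against -0.19. Without MFI8 replicate 1, only Scd2 passed (-0.34, adjusted p = 0.00186), beside 0.974% of all tested genes lower and 1.3% higher. The log2 fold changes of Elovl6 (-0.24), Stard4 (-0.22), Sc5d (-0.16) and Srebf1 (0.17) stayed near their values with all libraries, with adjusted p between 0.0999 and 0.438. Those of Hmgcs1 (-0.20), Idi1 (-0.19), Sqle (-0.10), Cyp51 (-0.09) and Msmo1 (-0.07) were smaller by more than 1.5 times. Without vehicle replicate 2, 7 listed genes passed, all lower, beside 0.708% of all tested genes lower and 0.866% higher, and without MFI8 replicate 2, 6 did, all lower, beside 0.507% and 0.582%. Sc5d (-0.19 and -0.21), Elovl6 (-0.16 and -0.23) and Srebf1 (0.12 and 0.20) did not pass in these fits in turn, nor Sqle in the second (-0.23). Offsets for GC content and length, added after the data had been seen, left 8 listed genes lower with the block and 0 higher: Hmgcs1, Sqle, Cyp51, Stard4, Fasn, Scd1, Scd2 and Elovl6, beside 2.44% of all tested genes lower and 1.71% higher. Idi1 (-0.28, adjusted p = 0.128), Msmo1 (-0.16, adjusted p = 0.0968) and Sc5d (-0.15, adjusted p = 0.0622) missed the threshold with log2 fold changes less than 1.5 times smaller. Srebf1 was then at 0.09 (adjusted p = 0.295) against 0.18, and Fasn changed sign, from 0.03 to -0.12 (adjusted p = 0.0264). With DESeq2's size factors, the block called 6 listed genes lower and 0 higher, beside 1.84% and 2.33% of all tested genes. Idi1 (-0.34), Sqle (-0.17), Msmo1 (-0.19) and Srebf1 (0.18) kept their log2 fold changes and had adjusted p between 0.0563 and 0.0608. Genes that did not pass with all libraries also moved. Without vehicle replicate 1, Acat2 was at -0.04 and Fdft1 at -0.02, and Insig1 turned from -0.09 to 0.03. In that fit Lss turned from -0.03 to 0.05, Ebp was at 0.16 and Tm7sf2 at 0.34. Without MFI8 replicate 1 Scd1 was at -0.05. Mvd was at 0.00 without vehicle replicate 2.

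**Figure D3:**
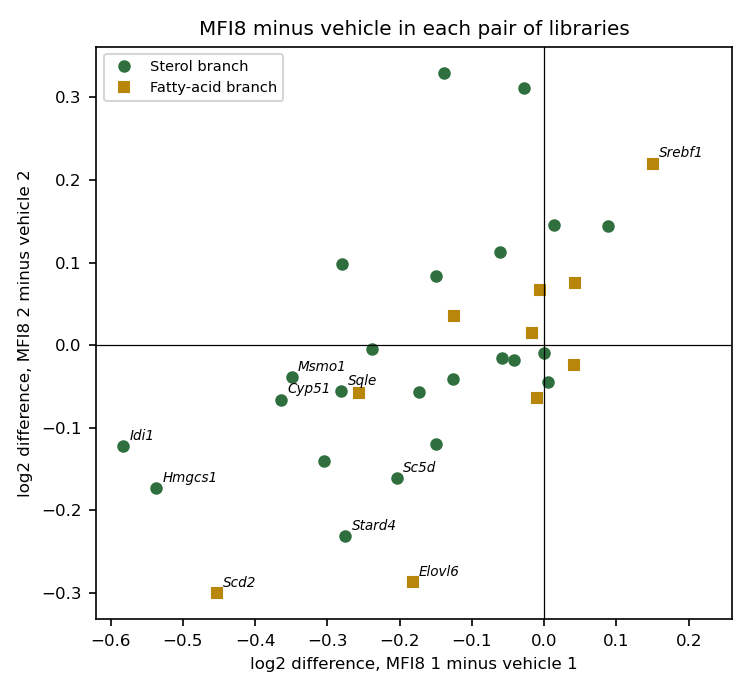
Difference in log2 CPM between MFI8 and vehicle for replicate 1 (horizontal axis) and replicate 2 (vertical axis), 1 point per listed gene, with the genes named that passed with the block. Among the sterol genes, 15 of 23 are lower in both numbers, and Scd2, Elovl6 and Stard4 lie well below 0 on both axes.

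MASM7, the mitofusin activator, was compared with vehicle in the same way. In the fit with the block, Hmgcs1 (log2 fold change -0.21 ± 0.06) and Scd2 (-0.17 ± 0.05) were lower and Srebf1 (0.20 ± 0.05) and Fasn (0.18 ± 0.05) higher with MASM7. No listed gene passed without the block (0 of 33, beside 0% of all tested genes), and DESeq2 called 0. At an unadjusted p under 0.05, 2 sterol genes were lower (Hmgcs1 and Acat2) and 2 fatty-acid genes higher (Srebf1 and Fasn), beside 4.88% of all tested genes lower and 5.32% higher. These counts were 0 sterol genes and 2 fatty-acid genes higher without vehicle replicate 1, beside 5.53% and 7.28%. With the block 2 listed genes fell, Hmgcs1 and Scd2, and 2 rose, Srebf1 and Fasn, beside 1.39% lower and 2.48% higher. The libraries did not overlap for 4 sterol genes lower and 2 higher and for 1 fatty-acid gene lower and 3 higher, beside 21.6% and 21.2% of all tested genes. Against vehicle replicate 2 alone these were 3 and 10 sterol genes and 2 and 3 fatty-acid genes, beside 38.2% and 37.6%.

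Hmgcs1 differed by -0.22 ± 0.09 (adjusted p = 0.479) for MASM7, and by -0.21 ± 0.06 (adjusted p = 0.0335) with the block, although its higher MASM7 library was level with the lower vehicle library. Scd2 differed by -0.18 ± 0.11 (adjusted p = 0.568), and by -0.17 ± 0.05 (adjusted p = 0.0323) with the block. Srebf1 differed by 0.20 ± 0.07 (adjusted p = 0.473), and by 0.20 ± 0.05 (adjusted p = 0.0355) with the block. Fasn (chr11:120805846-120824547, minus strand) had 746 and 677 CPM in the vehicle libraries, 805 and 810.2 in those with MASM7, and 744 and 708 in those with MFI8. Both MASM7 libraries were the highest of the 6, and its log2 fold change for MASM7 was 0.18 ± 0.06 (adjusted p = 0.473), and 0.18 ± 0.05 (adjusted p = 0.0213) with the block. Acat2 had 50.6 and 55.9 CPM with MASM7, below both vehicle libraries, a log2 fold change of -0.16 ± 0.07 (adjusted p = 0.485, and 0.121 with the block). Without vehicle replicate 1, the block called Srebf2 (0.16, adjusted p = 0.0412), Srebf1 (0.27, adjusted p = 0.00536) and Fasn (0.24, adjusted p = 0.00136) higher and 0 listed genes lower, beside 4.41% of all tested genes higher and 3.16% lower. Hmgcs1 was then at -0.09 (adjusted p = 0.421), Scd2 at -0.09 (adjusted p = 0.325) and Acat2 at -0.08 (adjusted p = 0.568). Without MASM7 replicate 2 it called 0 listed genes, where Hmgcs1 was at -0.19, Scd2 at -0.22, Srebf1 at 0.12 and Fasn at 0.13, beside 0.0411% of all tested genes lower and 0.171% higher. Without vehicle replicate 2 it called Hmgcs1 and Scd2, without either MFI8 library Hmgcs1 and Srebf1, and without MASM7 replicate 1 Hmgcs1, Srebf1, Fasn and Scd1. In these 4 fits the block called between 0.106% and 3.57% of all tested genes lower and between 0.231% and 4.9% higher. Without MFI8 replicate 1, Fasn (0.18) and Scd2 (-0.17) kept the log2 fold changes they had with all libraries. With DESeq2's size factors and the block, Hmgcs1 stood at -0.21 with an adjusted p of 0.05 and did not pass. Scd2, Srebf1 and Fasn still did. With the offsets for GC content and length, Scd2 alone passed (-0.17, adjusted p = 0.0285), beside 0.35% of all tested genes lower and 0.7% higher. Fasn was then at 0.07 (adjusted p = 0.336), Srebf1 at 0.08 (adjusted p = 0.405) and Hmgcs1 at -0.15 (adjusted p = 0.223).

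**Figure D4:**
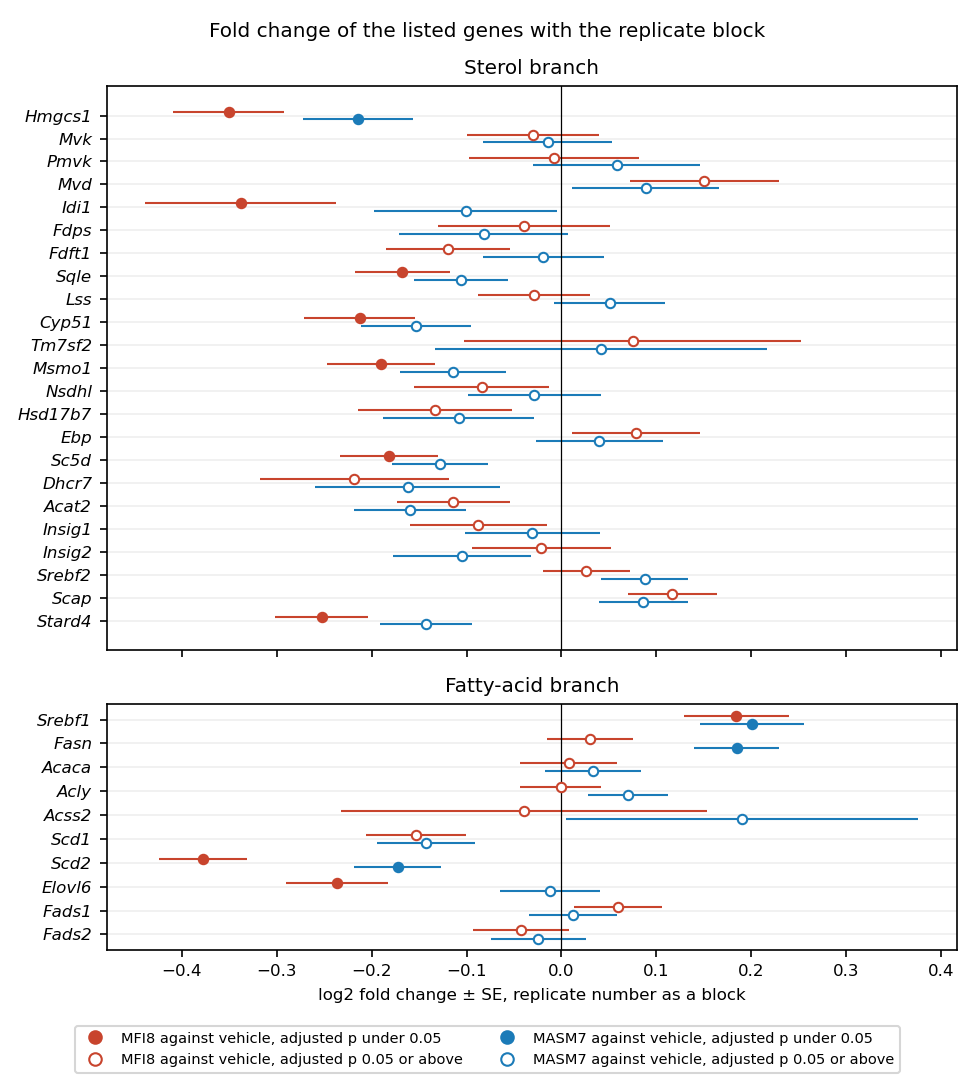
log2 fold change against vehicle with the replicate number as a block (horizontal axis, bars are SE) for MFI8 and MASM7; filled points passed an adjusted p of 0.05. For MFI8 9 genes are filled on the left and Srebf1 on the right, and for MASM7 Hmgcs1 and Scd2 are filled on the left and Srebf1 and Fasn on the right.

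Both comparisons with vehicle share the vehicle libraries, so the compounds were also set against each other directly, at their different concentrations. Of the 33 genes 0 passed without the block, beside 0% of all tested genes. At an unadjusted p under 0.05, 2 were lower with MFI8 than with MASM7, Elovl6 and Fasn, and 0 higher, beside 2.95% of all tested genes lower and 4.23% higher. Elovl6 differed by -0.22 ± 0.06 (adjusted p = 0.509), and by -0.22 ± 0.05 (adjusted p = 0.0155) with the block. Scd2 differed by -0.20 ± 0.11 (adjusted p = 0.717), and by -0.20 ± 0.05 (adjusted p = 0.0106) with the block. These were the 2 listed genes past the threshold with the block, both lower, beside 1.31% of all tested genes lower and 1.76% higher. Fasn differed by -0.15 ± 0.06 (adjusted p = 0.639), and had an adjusted p of 0.0564 with the block. In the sterol branch 0 genes passed with the block, where Hmgcs1 differed by -0.14 ± 0.06, Idi1 by -0.24 ± 0.10 and Stard4 by -0.11 ± 0.05. The libraries did not overlap for 8 sterol genes lower and 1 higher and for 4 fatty-acid genes lower and 0 higher, beside 19.6% and 19.6% of all tested genes. With the block, Elovl6 did not pass without MASM7 replicate 1 (-0.16, adjusted p = 0.148), nor Scd2 without MASM7 replicate 2 (-0.16, adjusted p = 0.166). Without MFI8 replicate 1 the count was 0, with Elovl6 at -0.23 (adjusted p = 0.168) and Scd2 at -0.17 (adjusted p = 0.407). Without MFI8 replicate 2 Hmgcs1 alone passed (-0.29, adjusted p = 0.036), whereas it was at 0.01 and Idi1 at -0.09 without MFI8 replicate 1, and Elovl6 and Scd2 were at -0.22 and -0.24. Over the 6 fits the block called between 0.486% and 2.35% of all tested genes lower and between 0.308% and 2.97% higher. With the offsets for GC content and length it called Stard4 (-0.16, adjusted p = 0.021), Fasn (-0.19, adjusted p = 0.000676), Scd2 and Elovl6 lower, beside 3% of all tested genes lower and 1.72% higher. Fasn passed as lower without either vehicle library and without MASM7 replicate 1.

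The sterol branch was last set beside the fatty-acid branch. For MFI8 the median log2 fold change was -0.10 over the 23 sterol genes, of which 18 were lower, and -0.02 over the 10 fatty-acid genes, of which 6 were lower, beside a median of 0.00 and 49.3% lower over all tested genes. For MASM7 the medians were -0.09 (16 of 23 lower) and 0.02 (4 of 10 lower), beside 0.00 and 49.9% over all tested genes. Between MFI8 and MASM7 they were -0.06 (16 of 23 lower) and -0.05 (9 of 10 lower), beside 0.00 and 50.5%. Without MFI8 replicate 1 the sterol median of this comparison depended on the block. In the fit without the block it was -0.05, with 18 of 23 lower, and the fatty-acid median was -0.06, with 7 of 10 lower. In the block fit the sterol median was 0.01, with 9 of 23 lower, and the fatty-acid median -0.04, with 7 of 10 lower. Genes of a pathway are not replicates, so the branches are described and not tested. The difference between the branch medians was -0.09 for MFI8 and -0.11 for MASM7, where the same difference taken library by library had an SD of 0.055 within groups. With the offsets for GC content and length the difference was -0.02 for MFI8, where the sterol median stayed at -0.10 and the fatty-acid median was -0.08, and -0.08 for MASM7.

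The difference between the branches also depended on vehicle replicate 1, for both compounds. Relative to the vehicle mean, the median sterol gene stood at 0.07 and -0.07 in the vehicle libraries, at -0.06 and -0.09 under MASM7, and at -0.09 and -0.11 under MFI8, so vehicle replicate 2 lay close to the treated libraries. The median fatty-acid gene stood at 0.01 and -0.01 under vehicle, 0.05 and 0.01 under MASM7, and -0.06 and 0.00 under MFI8. Within replicate 1 the median sterol difference from vehicle was -0.15 for MFI8 and -0.13 for MASM7, and within replicate 2 it was -0.04 and 0.03. Without vehicle replicate 1, 13 of 23 sterol genes were lower with MFI8 with a median of -0.01, and 10 of 23 were lower with MASM7 with a median of 0.03. The difference between the branch medians was then 0.00 for MFI8 and 0.02 for MASM7. The fibroblast marker sum was also higher in vehicle replicate 1 than in vehicle replicate 2, and its part in the result was not tested.

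**Figure D5:**
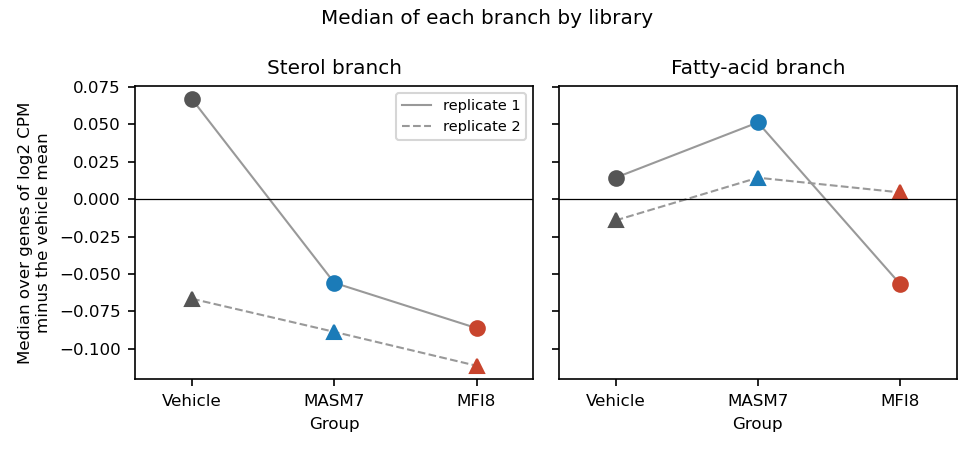
Median over the genes of each branch of log2 CPM minus the vehicle mean (vertical axis) in the 3 groups, with replicate 1 joined by solid and replicate 2 by dashed lines. Vehicle replicate 1 is the only library above 0 in the sterol branch, and vehicle replicate 2 is at -0.07, beside -0.06 to -0.11 in the treated libraries.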

How the data were processed

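Per the labels and methods, reads of polyA RNA libraries (TruSeq) were demultiplexed with bcl2fastq, trimmed with Trimmomatic, aligned to mm10/GRCm38 with STAR and counted over exons with featureCounts. The authors deposited raw counts per gene, which were tested here, and TPM values, which were used for levels between genes. Their DESeq2-normalized counts were not used. Annotation release, strandedness of counting and the lengths behind TPM are not given in the sources used here. Alignment and counting were not repeated. Concentrations and duration of the compounds come from the paper.

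Counts were fitted in edgeR 4.0.16 (R 4.3.3) with filterByExpr, TMM factors and 1 coefficient per group over all 6 libraries, and tested by quasi-likelihood F tests with Benjamini-Hochberg adjustment over 14290 genes at 0.05. The SE of a log2 fold change is its absolute value over the root of F. CPM were scaled with TMM factors, and a prior count of 2 was added for log2 CPM of single libraries. Differences between replicate 2 and replicate 1 correlated across genes between groups (Pearson's r = 0.188 for vehicle and MASM7, 0.152 for vehicle and MFI8, 0.165 for MASM7 and MFI8; genes are not independent). The numbers come from the sample titles, which do not say what they mark, and were taken to pair libraries because each r was over 0.1. The same code was run on simulated counts, with no replicate effect or with one that all groups shared in full. The libraries here share less than that, so the simulation does not bear on the calls made with the block.

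Alternatives were DESeq2 1.42.0 (size factors in edgeR, and its Wald test), scaling by library size, a filter of 1 count in any library or of 10 in each, a fit of only the compared groups, the replicate block, limma 3.58.1 on log2(TPM + 1), and each library left out. Offsets for GC content and length (lowess, span 0.3, GENCODE vM21 models, 97.9% of tested genes) and combinations with the block, among them each library left out, were chosen after seeing the data. Statistics are given for listed genes with an unadjusted p under 0.05 or, where fewer than 3 passed, the 3 smallest (and, added after seeing the data, those past the threshold with the block), and of each related list the 2 genes with the smallest p in each direction; every listed gene may be named. The members and lists were chosen with earlier results of these data known.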

Additional observations from a re-analysis of the deposited data

How the results depend on the processing

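Without the block, DESeq2's size factors, scaling by library size, a minimum of 10 counts in each library and limma on TPM called 0 genes in all 3 comparisons, as did the fit as reported. Counts over all tested genes are given here for MFI8 against vehicle, MASM7 against vehicle and MFI8 against MASM7 in that order. They were 256, 127 and 168 with a filter of 1 count in any library (3, 1 and 1 of the listed genes), 47, 3 and 24 by DESeq2's Wald test (0 listed), 0, 1 and 2 with only the compared groups (0 listed), and 720, 554 and 439 with the replicate number as a block (10, 4 and 2 listed). Settings combined with the block were chosen after seeing the data: offsets for GC content and length gave 594, 150 and 674 (8, 1 and 4 listed), DESeq2's size factors 596, 452 and 371 (6, 3 and 2 listed), and library size alone 700, 533 and 505 (7, 4 and 2 listed). Leaving out each library gave 0 to 26, 0 to 2 and 0 to 24 genes without the block (0 listed in each), and 159 to 1107, 31 to 1234 and 116 to 803 with it (1 to 11, 0 to 4 and 0 to 3 listed). The lone library of a group was then assumed to vary like the other groups.

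The difference between the branch medians ranged from -0.176 to 0.0038 for MFI8 and from -0.219 to 0.0212 for MASM7 with a library left out, in both cases highest without vehicle replicate 1 and lowest without vehicle replicate 2, and from -0.010 to 0.0499 for MFI8 against MASM7, block fits included. With offsets for GC content and length it was -0.0208 for MFI8, and -0.0152 with the block added. The cause was not tested. The direction of the listed genes with an unadjusted p under 0.05 in a comparison was the same under each of these alternatives. The libraries of a group differed by a median of 0.084 to 0.131 on the log2 scale over the listed genes. With 2 libraries a group, 0 differences passed in the fit without the block, and the block removes the part of that spread shared by number (r between 0.564 and 0.660 across the 33 genes, which are not independent).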

Other observations

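Genes around the program were described from lists of related functions, with the same fits. For each call with the block, the number of the 6 fits with 1 library left out in which it also passed is given, with the range of its log2 fold change over them. Of 16 tested genes of sterol uptake, transport and esterification, 14 were higher with MFI8 than with vehicle and 2 lower, beside 50.7% of all tested genes higher, with a median log2 fold change of 0.10 beside 0.00. With the block 2 of them rose and 0 fell, beside 2.79% of all tested genes higher and 2.25% lower. Vldlr, a lipoprotein receptor, had 19.9 to 20.2 CPM with vehicle and 22.3 to 28.2 with MFI8 (log2 fold change 0.34 ± 0.11, adjusted p = 0.412, and 0.016 with the block). It passed in 4 of 6 such fits (0.20 to 0.46), not without vehicle replicate 2 or MFI8 replicate 2. The other was the endocytic receptor Lrp1, named after its values were seen (0.20 ± 0.12, adjusted p = 0.592, and 0.0214 with the block), which passed in 4 of 6 (0.10 to 0.30), not without vehicle replicate 2 or MFI8 replicate 1. Npc1, which exports cholesterol from lysosomes, had 49.7 to 52.9 CPM with vehicle, 47.2 to 48.8 with MASM7 and 57.7 to 58.6 with MFI8. It did not pass against vehicle (0.18 ± 0.06, adjusted p = 0.413, and 0.0658 with the block). With the block it was higher with MFI8 than with MASM7 (0.28 ± 0.06 without the block, adjusted p = 0.336, and 0.0042 with it). So was the oxysterol-binding protein Osbpl8 (0.24 ± 0.08 without the block, adjusted p = 0.582, and 0.0318 with it). These were the 2 calls among the 16 genes between the compounds, beside 1.76% of all tested genes higher and 1.31% lower. Npc1 (0.26 to 0.30) and Osbpl8 (0.20 to 0.28) each passed in 3 of 6, and neither did without MASM7 replicate 2 or either MFI8 library. For MASM7 the same list had 8 genes higher and 8 lower, and Lrp1 passed with the block (0.23 ± 0.12 without it, adjusted p = 0.531, and 0.0125 with it), beside 2.48% of all tested genes higher, and in 4 of 6 fits (0.11 to 0.35), not without vehicle replicate 2 or MASM7 replicate 2.

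Of 24 genes of SREBP processing and sterol sensing, 11 were lower with MFI8, beside 49.3% of all tested genes, and 2 passed as lower with the block, beside 2.25%: Rnf145, a ubiquitin ligase, at -0.19 ± 0.06 (adjusted p = 0.398, and 0.0346 with the block), and Sar1b, a GTPase of vesicle budding from the endoplasmic reticulum, at -0.22 ± 0.09 (adjusted p = 0.443, and 0.0336 with the block). Rnf145 passed in 3 of 6 fits (-0.24 to -0.13), not without vehicle replicate 2 or either MFI8 library, and Sar1b in 2 of 6 (-0.28 to -0.17), those without a MASM7 library. The acyl-CoA synthetase Acsl4 had 148 to 154 CPM with vehicle and 133 to 135 with MFI8 (-0.17 ± 0.05, adjusted p = 0.388, and 0.0306 with the block), the 1 gene of 23 in the list of elongation, activation and supply to pass. Acsl4 also passed in only the 2 fits without a MASM7 library (-0.21 to -0.13). Of 22 genes of fatty-acid oxidation, 9 of LXR targets and export and 15 of other mevalonate products, 0 passed for MFI8 with the edgeR block fit, beside 2.25% of all tested genes lower and 2.79% higher, and without the block 2 were lower and 1 higher, 0, and 0 lower and 1 higher at an unadjusted p under 0.05, beside 4.65% lower and 5.21% higher. Of these genes, 4 passed with the block in 1 of the 6 fits each, named after their values were seen: Acads, Ppard and Nus1 without vehicle replicate 1 and Abca1 without MFI8 replicate 1. For MASM7 the nuclear receptor Ppard (0.30 ± 0.09, adjusted p = 0.473, and 0.00278 with the block), the acyltransferase Agpat1 (0.17 ± 0.06, adjusted p = 0.473, and 0.027 with the block) and the prenyl-protein protease Rce1 (0.23 ± 0.07, adjusted p = 0.473, and 0.0412 with the block) were higher. Each was the only call with the block in its list, of 22, 23 and 15 tested genes in that order. Over all tested genes 2.48% were called higher and 1.39% lower. Ppard passed in 4 of 6 fits (0.22 to 0.40), not without vehicle replicate 2 or MASM7 replicate 2, and Agpat1 (0.15 to 0.20) and Rce1 (0.19 to 0.27) in 2 of 6 each. Between the compounds, Cpt1a, the carnitine palmitoyltransferase that admits fatty acids to mitochondria, had 32.5 to 44.4 CPM with MFI8 and 26.8 to 34.6 with MASM7 (0.32 ± 0.16, adjusted p = 0.717, and 0.00404 with the block), and the groups overlapped. With the block it was the 1 call among the 22 genes of fatty-acid oxidation, beside 1.76% of all tested genes higher and 1.31% lower. It passed in 4 of 6 fits (0.27 to 0.37), not without MASM7 replicate 2 or MFI8 replicate 1.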
